A study of Mus musculus with 9 samples.

Results

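The genes described are the 5 subunits of the transcription factor NF-kappaB (Nfkb1, Nfkb2, Rel, Rela and Relb) and 5 of its feedback inhibitors (Nfkbia, Nfkbie, Nfkbiz, Tnfaip3 and Bcl3). They were chosen by name, with earlier results of these data known, and were found by gene symbol, 10 of 24346 gene symbols in the files. All 10 were among the 10686 genes that passed a filter on low values (3 or more of the 9 samples had to reach 1 FPKM). None of them was under 7.59 FPKM in any sample. FPKM count fragments relative to transcript length and to all fragments mapped in that library, so levels of different genes are compared here per length.

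RNA sequencing covered macrophages sorted from the lungs of wild-type C57BL/6 mice at postnatal week 10, in 3 groups of 3 samples. Ctrl-AM were alveolar macrophages (AMs) of control mice, which had received vehicle without cancer cells. Tumor-AM were AMs of mice that carried a lung tumor, grown from Lewis lung carcinoma (LLC) cells, a mouse line of the same strain, labelled with the red fluorescent protein tdTomato and injected with Matrigel into the left lung. Tumor-macrophage were the other macrophages of such mice, called tumor-associated macrophages (TAMs) by the study. Per the methods, lungs of female mice were taken without perfusion and digested with enzymes, AMs were gated as CD45+ autofluorescent Siglec-F+ cells, and TAMs as the Siglec-F- cells in that gate that carried F4/80 and CD11b. No group carried an engineered allele according to the labels, and no source used here says whether Tumor-AM and Tumor-macrophage samples came from the same mice, so p-values measure the spread between samples, which may in part be technical. In whole sorted populations, fewer cells of a type and less RNA per cell cannot be told apart.

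NF-kappaB is a dimer that waits in the cytoplasm, held there by proteins of the IkappaB family. Signals from Toll-like receptors, the IL-1 receptor or the TNF receptor activate a kinase complex that marks IkappaB for destruction, and the freed dimer enters the nucleus, where it turns on cytokines, chemokines, survival genes and several of its own inhibitors. In macrophages this loop limits how long an inflammatory response lasts.

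Markers and labels were checked first. The 8 AM markers, which include Siglecf and Pparg, summed to between 3090 and 3203 FPKM for Ctrl-AM, 2433 to 3147 for Tumor-AM, then 136 to 151 for Tumor-macrophage. The 8 TAM markers, which include C1qa and Ccr2, summed to 18.6 to 22.9, 37.4 to 52.3 and 3403 to 3549 FPKM. Estimated depth was alike, with a relative depth of 0.907 to 1.14 over the 9 samples. An estimated 162 reads (Bcl3, the lowest) to 7521 reads (Nfkbia, the highest) stood behind a value of the 10 genes, and this precision covers counting error only. Tumor-macrophage 2 stood apart within its group: it lay below the group mean (log2 scale) for all of the 10 genes but 1, with a median deviation of -0.18, while Tumor-macrophage 1 lay above it for 10 of 10, with a median deviation of 0.19.

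Promoter sequence is shown first, because NF-kappaB is known to act on the promoters of its own subunits and inhibitors. RefSeq windows on GRCm38.p6 (the assembly also called mm10) from 250 bases before to 50 bases after a start were available for 7 of the 10 genes, namely Nfkb2, Rel, Rela, Nfkbia, Nfkbie, Tnfaip3 and Bcl3. They were searched on both strands for the NF-kappaB consensus, the kappaB motif of 10 bases that runs GGG, a purine, 2 bases of any kind, 2 pyrimidines and CC. At least 1 match was found for 6 of the 7 genes (85.7%), against 9.55% of all genes with a window and 11.9% of the genes tested here. Among the other genes of the pathway that are described further on, 13 of 26 target genes (50%) and 2 of 22 upstream signalling genes (9.09%) held a match. Counted by window, since some genes have several starts, 8 of 10 windows of these genes (80.0%) held it, against 8.46% of 32851 windows. A match is a description of letters and was not measured as a bound site. For Rela the letters were not in the window.

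Each of the following stretches has 30 bases, is written 5′ to 3′ on the strand of its gene and has the match in capitals. They are shown so that the letters can be compared between the subunits and the inhibitors. Where the capitals run over 11 bases, overlapping matches on the 2 strands were joined. Positions count from the first listed RefSeq start.
Nfkb2, bases -39 to -29, chr19:46304689-46304718, plus strand, UTR: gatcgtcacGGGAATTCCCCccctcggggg
Nfkb2, bases -11 to -2, chr19:46304716-46304745, plus strand, UTR: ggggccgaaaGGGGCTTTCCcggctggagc
Rel, bases -92 to -82, chr11:23771041-23771070, minus strand, upstream of the gene: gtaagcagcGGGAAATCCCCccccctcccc
Nfkbia, bases -29 to -20, chr12:55492657-55492686, minus strand, upstream of the gene: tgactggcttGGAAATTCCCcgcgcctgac
Nfkbie, bases -106 to -97, chr17:45555584-45555613, plus strand, upstream of the gene: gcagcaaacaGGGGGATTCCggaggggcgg
Tnfaip3, bases -125 to -116, chr10:19015516-19015545, minus strand, intron: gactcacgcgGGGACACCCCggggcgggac
Tnfaip3, bases -12 to -3, chr10:19015403-19015432, minus strand, intron: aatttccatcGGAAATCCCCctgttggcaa
Bcl3, bases 3 to 12, chr7:19822734-19822763, minus strand, UTR: tcggcggcagGGGAAGTCCCgctgcccggc

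The words UTR and intron come from the GENCODE annotation, whose transcripts can begin further upstream than the RefSeq start. The map of the matches shows that Nfkb2 and Tnfaip3 held a pair of separate stretches each, and that the stretches of Nfkb2, Nfkbia, Tnfaip3 and Bcl3 nearest to the start lay between bases -29 and 12.

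**Figure D1:**
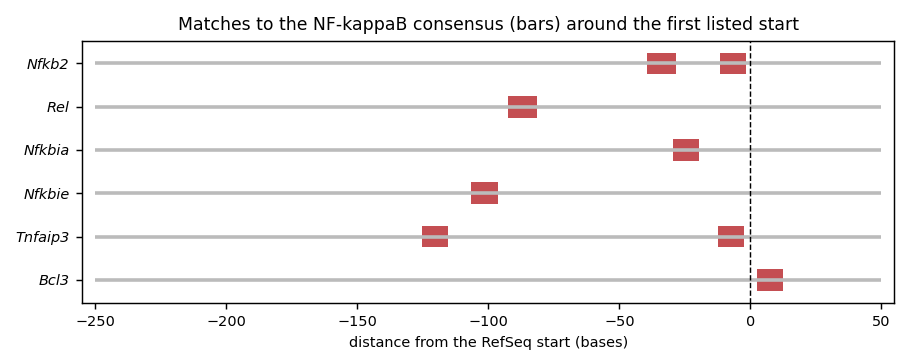
Matches to the NF-kappaB consensus (red bars, to scale) in the RefSeq windows of 6 genes; the x axis is the distance in bases from the first listed start (dashed line), and the grey line is the window of 250 bases before to 50 after it. Nfkb2 and Tnfaip3 hold 2 stretches each, Bcl3 has its match just after the start, and those of Rel (bases -92 to -82) and Nfkbie (-106 to -97) lie further upstream.

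The 5 subunit genes were read in every sample. Between the AM groups, Rela, Nfkb1 and Relb overlapped. Nfkb2 and Rel were higher in Tumor-AM without overlap, as were 18.9% of all genes tested, and of the 5 only Nfkb2 passed the test. Rela, which encodes p65, the main activating subunit (chr19:5637483-5648130, plus strand), was the most abundant of the 5 per length in all 9 samples. Its FPKM were 49.4, 48.4 and 45.0 for Ctrl-AM 1 to 3, 47.8, 46.4 and 45.7 for Tumor-AM 1 to 3, then 65.1, 50.7 and 57.5 for Tumor-macrophage 1 to 3. The 2 AM groups overlapped, and all Tumor-macrophage samples lay above them. On the scale of log2(FPKM + 1), used for every change that follows, the change from Ctrl-AM to Tumor-AM was -0.03 with a 95% confidence interval from -0.23 to 0.18 (limma adjusted p = 0.893). Tumor-macrophage was higher than Tumor-AM by 0.30 ± 0.09 (SE, limma adjusted p = 0.021) and higher than Ctrl-AM by 0.27 ± 0.09 (limma adjusted p = 0.029). Both calls depended on the scaling: with every sample rescaled to the same sum (TPM), the changes were 0.20 (adjusted p = 0.0873) and 0.04 (adjusted p = 0.744). The first was also lost without Tumor-AM 3 or Tumor-macrophage 1, and the second without Ctrl-AM 2, Ctrl-AM 3, Tumor-macrophage 1 or Tumor-macrophage 3 and in a fit of the compared groups alone.

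Nfkb1 encodes p105, the precursor of p50, the usual partner of p65 (chr3:135584655-135691547, minus strand). Its FPKM were 13.8, 13.6 and 11.0 for Ctrl-AM, 11.7, 10.1 and 13.2 for Tumor-AM, then 15.2, 13.4 and 14.1 for Tumor-macrophage. The AM groups overlapped, and the Tumor-macrophage samples lay just above Tumor-AM and overlapped Ctrl-AM. None of the 3 comparisons passed the test. The changes were -0.12 (Tumor-AM against Ctrl-AM, 95% confidence interval -0.39 to 0.14, limma adjusted p = 0.584), 0.27 (Tumor-macrophage against Tumor-AM, limma adjusted p = 0.0874) and 0.15 (Tumor-macrophage against Ctrl-AM, limma adjusted p = 0.325).

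Rel encodes c-Rel, the subunit best known from activated lymphocytes and from macrophage cytokine genes (chr11:23736847-23770970, minus strand). Its FPKM were 12.7, 16.5 and 14.8 for Ctrl-AM, 27.6, 19.5 and 20.4 for Tumor-AM, then 34.9, 19.95 and 34.5 for Tumor-macrophage. Every tumor-lung sample lay above every Ctrl-AM sample, while the groups from tumor-bearing mice overlapped through Tumor-macrophage 2. The change was 0.58 ± 0.21 from Ctrl-AM to Tumor-AM, which did not pass the test (limma adjusted p = 0.113). Tumor-macrophage was higher than Ctrl-AM by 0.94 ± 0.21 (limma adjusted p = 0.00294) and differed from Tumor-AM by 0.36 (limma adjusted p = 0.177). Without Tumor-macrophage 2, the adjusted p were 0.027 for Tumor-AM against Ctrl-AM and 0.0086 for Tumor-macrophage against Tumor-AM, with a change of 0.62 in the latter. A fit of the compared groups alone also gave a call for Tumor-AM against Ctrl-AM (adjusted p = 0.0433).

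Nfkb2 and Relb are the pair of the alternative pathway. Nfkb2 encodes p100, both an inhibitor and the precursor of p52 (chr19:46304320-46312385, plus strand). Its FPKM were 30.8, 31.1 and 28.9 for Ctrl-AM, 36.6, 35.9 and 39.2 for Tumor-AM, then 46.6, 41.0 and 40.2 for Tumor-macrophage. The 3 groups followed each other without overlap. Tumor-AM was higher than Ctrl-AM by 0.29 ± 0.08 (limma adjusted p = 0.0468), a call that 12 of 18 alternative settings ended, the TPM rescaling (0.16, adjusted p = 0.245) among them. Tumor-macrophage was higher than Ctrl-AM by 0.48 ± 0.08 (limma adjusted p = 0.000488), and its difference from Tumor-AM was 0.19 (limma adjusted p = 0.0771). Of its 4584 exon bases, 830 are shared with genes on the other strand, Psd among them, and the use of strand was not stated. Psd was listed at 1.67 to 3.09 FPKM.

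Relb encodes RelB, which pairs with p52 (chr7:19606217-19629438, minus strand). Its FPKM were 17.3, 15.3 and 11.6 for Ctrl-AM, 17.1, 13.8 and 17.0 for Tumor-AM, then 44.9, 32.2 and 34.9 for Tumor-macrophage. The AM groups overlapped, and the lowest Tumor-macrophage sample was well above the highest AM sample. Tumor-macrophage was higher than Tumor-AM by 1.17 ± 0.16 (limma adjusted p = 0.000143) and higher than Ctrl-AM by 1.29 ± 0.16 (limma adjusted p = 5.93e-05). Between the AM groups, the change was 0.12 with a 95% confidence interval from -0.24 to 0.48 (limma adjusted p = 0.714).

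The makeup of the subunit RNA can be read within a sample, where scaling between samples plays no part. Rela made up 39.7% ± 0.85 (SD, n = 3) of the summed FPKM of the 5 subunit genes for Ctrl-AM, 34.9% ± 1.79 for Tumor-AM, then 31.8% ± 0.39 for Tumor-macrophage. The share of Relb was 12.2% ± 1.79, 11.9% ± 0.84 and 20.5% ± 1.23 in the same order, and that of Rel was 12.2% ± 1.73, 16.7% ± 2.52 and 16.2% ± 3.23. Nfkb2 took 25.2%, 27.8% and 23.6%, and Nfkb1 10.6%, 8.69% and 7.87%. The sum itself ran from 111.3 to 124.8 FPKM for Ctrl-AM, 125.7 to 140.8 for Tumor-AM, then 157.2 to 206.8 for Tumor-macrophage. The plot of these shares shows the block of Relb widening in the Tumor-macrophage samples alone, and that of Rel in most samples of both groups from tumor-bearing mice.

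**Figure D2:**
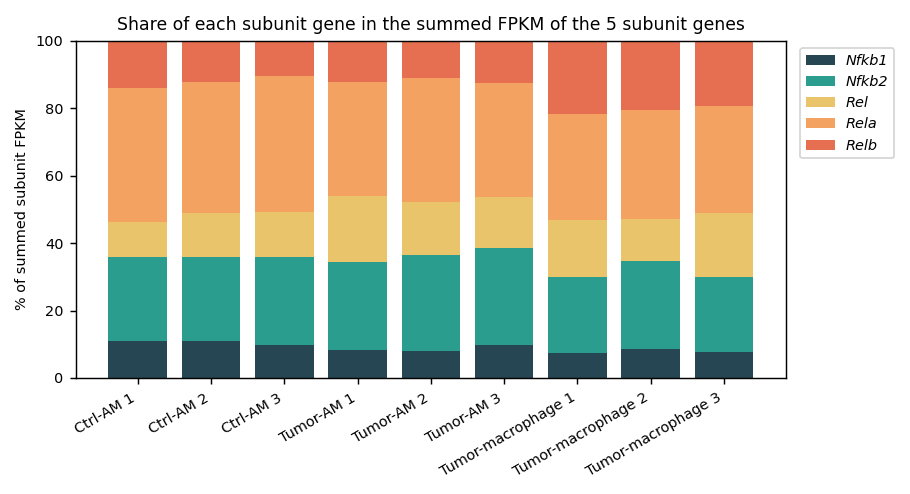
Stacked bars give the share (%) of each NF-kappaB subunit gene in the summed FPKM of the 5 subunit genes, with 1 bar per sample. Relb takes 19.3% to 21.7% in the Tumor-macrophage samples and 10.4% to 14.0% in the AM samples.

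Ratios between members were compared as log2 ratios of FPKM + 1 within each sample, with an exact permutation test (two-sided), and 18 such tests (6 ratios in 3 comparisons) were adjusted together. With 3 samples against 3 the exact p cannot go below 0.1, which is 0.18 after adjustment, so no ratio could pass the threshold. The Relb to Rela ratio was higher in Tumor-macrophage than in Tumor-AM by 0.87 and than in Ctrl-AM by 1.02, without overlap (exact p = 0.1 for each). Between the AM groups it differed by 0.15 with overlap (exact p = 0.5). The Rel to Rela ratio was higher than in Ctrl-AM by 0.61 in Tumor-AM and by 0.67 in Tumor-macrophage, without overlap (exact p = 0.1 for each), and differed by 0.07 between the latter groups (exact p = 0.9). The Nfkb2 to Nfkb1 ratio was higher than in Ctrl-AM by 0.41 in Tumor-AM and by 0.33 in Tumor-macrophage, without overlap (exact p = 0.1 for each). Nfkb1 to Rela overlapped in all 3 comparisons, with differences of -0.10, -0.02 and -0.12.

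For each of the 5 inhibitors, all Tumor-AM samples lay above all Ctrl-AM samples. The same held for the subunits Nfkb2 and Rel and for 18.9% of all genes tested. Tnfaip3 encodes A20, a ubiquitin-editing enzyme that shuts down the signal upstream of the kinase complex (chr10:19000910-19015657, minus strand). Its FPKM were 29.7, 35.5 and 28.9 for Ctrl-AM, 86.8, 62.7 and 69.7 for Tumor-AM, then 87.3, 56.4 and 87.2 for Tumor-macrophage. The groups from tumor-bearing mice overlapped each other, and both lay above Ctrl-AM. Tumor-AM was higher than Ctrl-AM by 1.19 ± 0.18 (limma adjusted p = 0.00271) and Tumor-macrophage by 1.25 ± 0.18 (limma adjusted p = 0.000135). Between the latter groups the change was 0.06 with a 95% confidence interval from -0.33 to 0.45 (limma adjusted p = 0.802), and it changed sign with the TPM rescaling and without some samples. Relative to Rela in the same sample, Tnfaip3 was higher than in Ctrl-AM by 1.21 in Tumor-AM and by 0.98 in Tumor-macrophage, without overlap (exact p = 0.1 for each), and differed by -0.24 between Tumor-macrophage and Tumor-AM (exact p = 0.2).

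Bcl3 encodes an IkappaB-like protein of the nucleus that binds p50 and p52 dimers (chr7:19808462-19822770, minus strand). Its FPKM were 8.30, 8.77 and 7.59 for Ctrl-AM, 14.6, 27.8 and 21.0 for Tumor-AM, then 66.0, 56.6 and 45.2 for Tumor-macrophage. The groups stood in 3 separate steps, with the widest relative spread in Tumor-AM. The change was 1.22 ± 0.20 from Ctrl-AM to Tumor-AM (limma adjusted p = 0.00447), 1.39 ± 0.20 from Tumor-AM to Tumor-macrophage (limma adjusted p = 0.000205) and 2.61 ± 0.20 from Ctrl-AM to Tumor-macrophage (limma adjusted p = 1.33e-06). Of its 2475 exon bases, 161 are shared with Gm16175 on the other strand.

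Nfkbie and Nfkbiz were at similar levels to each other in every group. Nfkbie encodes IkappaB-epsilon, which retains mainly c-Rel and p65 dimers in the cytoplasm (chr17:45555703-45563169, plus strand), and was listed at 9.86, 11.6 and 11.1 FPKM for Ctrl-AM, 17.2, 18.0 and 18.8 for Tumor-AM, then 85.3, 63.8 and 74.8 for Tumor-macrophage. Nfkbiz encodes IkappaB-zeta, a nuclear protein that many secondary response genes need (chr16:55811375-55838899, minus strand), and was listed at 11.0, 10.2 and 10.2 FPKM for Ctrl-AM, 19.5, 17.1 and 18.6 for Tumor-AM, then 73.3, 59.3 and 71.4 for Tumor-macrophage. For both genes the groups were separate, and the larger step was the one to Tumor-macrophage. From Ctrl-AM to Tumor-AM, Nfkbie rose by 0.68 ± 0.11 (limma adjusted p = 0.00404) and Nfkbiz by 0.76 ± 0.10 (limma adjusted p = 0.00133). From Tumor-AM to Tumor-macrophage, Nfkbie rose by 1.98 ± 0.11 (limma adjusted p = 1.32e-07) and Nfkbiz by 1.83 ± 0.10 (limma adjusted p = 1.01e-07). Against Ctrl-AM, the ratio of mean FPKM in Tumor-macrophage was 6.88 for Nfkbie, 6.51 for Nfkbiz and 6.80 for Bcl3, and the log2 changes of the first 2 were 2.67 ± 0.11 (limma adjusted p = 1.15e-08) and 2.59 ± 0.10 (limma adjusted p = 5.61e-09).

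Nfkbia encodes IkappaB-alpha, the first inhibitor to be destroyed and remade in a response (chr12:55489410-55492647, minus strand), and was by far the most abundant of the 10 genes per length. Its FPKM were 289.6, 267.7 and 269.9 for Ctrl-AM, 321.4, 371.9 and 349.4 for Tumor-AM, then 474.6, 452.7 and 445.7 for Tumor-macrophage. The groups did not overlap, and each step was small next to the same step of Bcl3, Nfkbie and Nfkbiz. Tumor-AM exceeded Ctrl-AM by 0.33 ± 0.07 (limma adjusted p = 0.0172), Tumor-macrophage exceeded Tumor-AM by 0.40 ± 0.07 (limma adjusted p = 0.000901), and the whole distance from Ctrl-AM to Tumor-macrophage was 0.73 ± 0.07 (limma adjusted p = 8.78e-06). The first of these calls was lost with the TPM rescaling (adjusted p = 0.0989) and without Ctrl-AM 2, Ctrl-AM 3 or Tumor-AM 3 (adjusted p from 0.0564 to 0.0749). Relative to Rela in the same sample, it was higher than in Ctrl-AM by 0.36 in Tumor-AM and by 0.46 in Tumor-macrophage, without overlap (exact p = 0.1 for each).

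**Figure D3:**
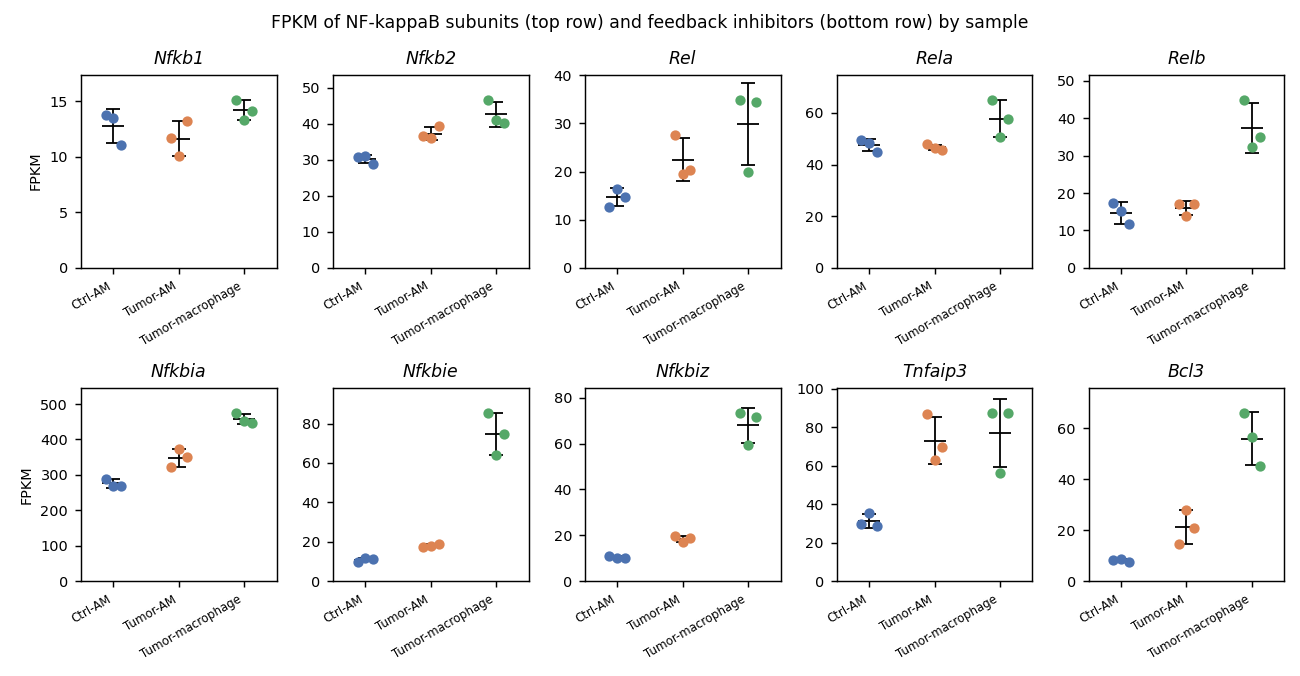
FPKM of the 10 genes (subunits in the top row, inhibitors in the bottom row) with 1 point per sample; the long bar is the group mean and the whiskers are the SD over 3 samples. Tnfaip3 overlaps between Tumor-AM (62.7 to 86.8) and Tumor-macrophage (56.4 to 87.3), while Nfkbie, Nfkbiz and Bcl3 rise in 2 steps and Relb stands out in Tumor-macrophage alone.

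In the comparison of Tumor-AM with Ctrl-AM, 6 of the 10 genes were higher and none was lower: Nfkb2 and the 5 inhibitors. It sets AMs of tumor-bearing mice against those of control mice. Per the methods, experimental mice were bred apart from controls, so tumor and breeding group cannot be told apart here. Of all genes tested, 7.11% were called higher and 3.18% lower. Groups did not overlap, with Tumor-AM higher, for 7 of the 10 genes and for 18.9% of all genes tested. The median change was 0.12 over the subunits and 0.76 over the inhibitors, against 0.01 over all genes tested. In the order of all 10686 genes by this change, Bcl3 was at place 144, Tnfaip3 at 151, Nfkbiz at 345 and Nfkbie at 426. The subunit Rel followed at 557, ahead of Nfkbia at 1278 and Nfkb2 at 1552. Relb was at 3468, Rela at 6162 and Nfkb1 at 7835. Over all genes, 760 were called higher and 340 lower, a split that became 607 and 446 with quantile normalization and 477 and 830 with the TPM rescaling, which moved the median change of all genes to -0.11. Under the TPM rescaling 4 of the 10 genes were called, and the changes of the 4 inhibitors other than Nfkbia passed the test under every alternative setting.

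In the comparison of Tumor-macrophage with Tumor-AM, which sets the macrophage populations of tumor-bearing mice against each other, 6 genes were higher and none lower: Rela, Relb and the inhibitors other than Tnfaip3. Since 24.2% of all genes tested were called higher and 24.4% lower, a call is common here. Groups did not overlap, with Tumor-macrophage higher, for 8 of the 10 genes and for 27.6% of all genes. The median change was 0.30 over the subunits and 1.39 over the inhibitors, against 0.00117 over all genes. Without Tumor-macrophage 2, the sample with the low values, 7 of the 10 genes were called higher here, as Rel passed the test, and 7 in Tumor-AM against Ctrl-AM.

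In the comparison of Tumor-macrophage with Ctrl-AM, which shares its samples with the other comparisons and is no separate evidence, 9 genes were higher, all but Nfkb1, and none was lower. The background was 27.7% called higher and 27.1% lower, and 9 of the 10 genes against 31.1% of all genes did not overlap with Tumor-macrophage higher. The medians were 0.48 over the subunits, 2.59 over the inhibitors and -0.01 over all genes. The TPM rescaling moved the median of all genes to -0.22 and the split of the calls from 2960 higher and 2900 lower to 2193 and 4529, and 8 of the 10 genes were still called higher. Without Tumor-macrophage 2 the count of genes called higher was 9. Differences between the groups include the cell type itself, so what belongs to the tumor and what to the kind of macrophage cannot be told apart in this comparison.

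**Figure D4:**
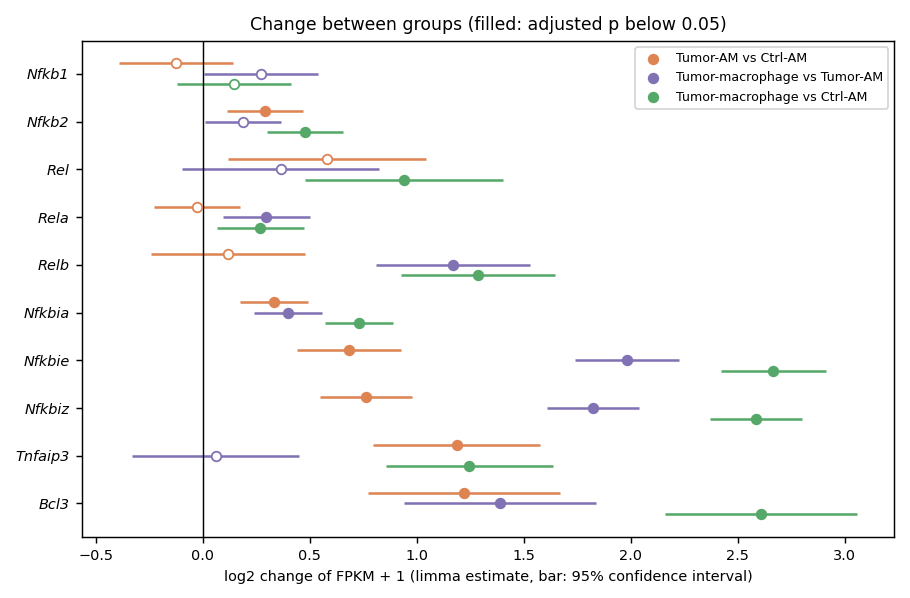
Change of log2(FPKM + 1) for the 10 genes in the 3 comparisons, as the limma estimate with its 95% confidence interval; filled points passed an adjusted p of 0.05. Nfkbie and Nfkbiz change most from Tumor-AM to Tumor-macrophage (1.98 and 1.83), Tnfaip3 changes by 1.19 from Ctrl-AM to Tumor-AM and by 0.06 after that, and no filled point lies below 0.

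Other RNAs moved with the inhibitors in Tumor-AM, and their part in the result was not tested except where a value is given. Of the 8 TAM markers, 6 were called higher in the AMs of tumor-bearing mice, with a median change of 0.80, and none was at 0 in a whole group. Over all genes tested, 7.11% were called higher and 3.18% lower in Tumor-AM against Ctrl-AM, the background for each list here. On the FPKM scale, with the Ctrl-AM mean set to 0% and the Tumor-macrophage mean to 100%, the Tumor-AM mean lay at 0.706% for the summed TAM markers and at 0.234% (Cx3cr1) to 7.07% (Ccr2) for single ones. It lay at 11.2% for Nfkbie, 13.9% for Nfkbiz, 27.1% for Bcl3, 39.5% for Nfkbia and 91.4% for Tnfaip3. Of 16 immediate-early genes, which respond to stimulation and also to handling of cells, 4 were higher in Tumor-AM and none lower (Junb, Nr4a1, Fosb and Klf2), and the summed FPKM of the list was 2107 to 2504 for Ctrl-AM, 2537 to 3294 for Tumor-AM, then 2659 to 3676 for Tumor-macrophage. T and NK cell markers summed to 6.28 to 8.38 FPKM for Ctrl-AM, 6.11 to 18.8 for Tumor-AM, then 19.5 to 38.1 for Tumor-macrophage. Of the 4 tested T and NK cell markers, 3 were called higher in Tumor-macrophage than in Tumor-AM, against 24.2% of all genes tested. In the same order of groups, neutrophil markers summed to 130 to 155, 130 to 202 and 63.8 to 101 FPKM, and epithelial markers to 73.2 to 221, 56.0 to 95.2 and 20.1 to 74.4. Endothelial and fibroblast markers summed to 4.97 to 6.94, 1.97 to 7.16 and 4.91 to 7.98 FPKM, and 7 general macrophage genes to 53201 to 58094, 56488 to 83382 and 57651 to 76786. The neutrophil markers did not move together. Of the 4 tested, 2 were called lower in Tumor-AM than in Ctrl-AM, S100a9 (means of 6.97 and 25.4 FPKM) and Retnlg, and none higher. S100a8, the largest part of the sum, had means of 121.3 and 77.7 FPKM and was not called in that comparison. The B cell markers Cd79a, Cd79b and Ms4a1 were each higher in Tumor-macrophage than in both AM groups, without overlap. Their mean FPKM were 7.29, 2.65 and 17.1 for Cd79a, 3.23, 1.398 and 18.4 for Cd79b, and 1.67, 0.78 and 4.77 for Ms4a1, in the order Ctrl-AM, Tumor-AM and Tumor-macrophage. From Tumor-AM to Tumor-macrophage they changed by 2.30, 3.05 and 1.65 (limma adjusted p = 4.80e-05, 2.77e-06 and 5.93e-05), and Cd79a was lower in Tumor-AM relative to Ctrl-AM (-1.20, limma adjusted p = 0.0214). B, T and NK cells also express Rel and Relb, and their part in the Tumor-macrophage values was not tested.

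Further inhibitors of the pathway moved in part with these 5. In Tumor-AM against Ctrl-AM, 7.11% of all genes tested were called higher and 3.18% lower. Of 20 listed inhibitors, 19 were tested, and 5 were higher and none lower in the AMs of tumor-bearing mice, with a median change of 0.14. They were Tnip3 (0.75 ± 0.15, limma adjusted p = 0.0103), Nlrc5 (0.71 ± 0.16, limma adjusted p = 0.0204), Zc3h12a (0.68 ± 0.09, limma adjusted p = 0.00146), Tnip1 (0.67 ± 0.17, limma adjusted p = 0.0302) and Trafd1 (0.42 ± 0.09, limma adjusted p = 0.0187). Tnip1 and Tnip3 bind A20, and Zc3h12a encodes Regnase-1, an RNase that degrades cytokine mRNAs. Zc3h12a, at a mean of 10.7 FPKM for Ctrl-AM and 17.8 for Tumor-AM, was at 17.7 in Tumor-macrophage (change -0.01, limma adjusted p = 0.939). Tnip1 likewise had means of 8.47, 14.0 and 14.7 FPKM. From Tumor-AM to Tumor-macrophage, 10 of the list were higher and 3 lower with a median change of 0.23. The background there was 24.2% of all genes tested called higher and 24.4% lower. Largest were the changes of Tnip3 (2.04) and Nlrc5 (1.95) on one side and of Nfkbil1 (-0.61), Pdlim2 (-0.36) and Tax1bp1 (-0.18) on the other. Against Ctrl-AM, 11 were higher in Tumor-macrophage and 1 lower (Nfkbil1), with a median of 0.37, beside a background of 27.7% higher and 27.1% lower.

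The upstream signalling genes, 26 kinases, adaptors and ubiquitin ligases that lead to NF-kappaB, were mostly below the threshold in the AMs. Ikbke was the 1 gene called in Tumor-AM against Ctrl-AM, and the median change of the list was 0.06. Of all genes tested, 7.11% were called higher and 3.18% lower there. Ikbke encodes IKK-epsilon, a kinase related to the IkappaB kinases, and was listed at 1.41, 1.86 and 0.977 FPKM for Ctrl-AM, 6.98, 3.86 and 4.95 for Tumor-AM, then 25.1, 25.3 and 26.1 for Tumor-macrophage. Its groups were separate, with changes of 1.36 ± 0.18 (limma adjusted p = 0.00178) from Ctrl-AM to Tumor-AM and of 2.11 ± 0.18 (limma adjusted p = 4.38e-06) from there to Tumor-macrophage. In the latter comparison 8 of the 26 were higher and 3 lower, with a median of 0.18. Among all genes tested, 24.2% were higher and 24.4% lower, so such calls were common. The adaptor Traf1 had the largest change (2.83), at means of 1.90 FPKM in Tumor-AM and 19.4 in Tumor-macrophage, and Birc3, a ubiquitin ligase of the TNF receptor complex, changed by 1.22. Those that were lower were the adaptor Myd88 (-0.70, from 113.6 to 69.8 FPKM), the kinase Ikbkb (-0.64, from 42.2 to 26.9 FPKM) and Tab3 (-0.51). Against Ctrl-AM, 9 were higher and the same 3 genes lower in Tumor-macrophage, with a median of 0.20. The shares over all genes tested were 27.7% higher and 27.1% lower.

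A list of 35 known NF-kappaB target genes was read beside the inhibitors. In Tumor-AM, 11 of the 35 were higher than in Ctrl-AM and none was lower, against 7.11% higher and 3.18% lower among all genes tested. The change was positive for 30 of the 35, with a median of 0.25. Il1b, which encodes interleukin-1 beta, was listed at 56.1, 90.5 and 65.6 FPKM for Ctrl-AM, 427.1, 298.6 and 445.6 for Tumor-AM, then 555.9, 314.8 and 559.9 for Tumor-macrophage. Both groups from tumor-bearing mice lay above Ctrl-AM and overlapped each other. Il1b rose by 2.45 ± 0.25 in Tumor-AM (limma adjusted p = 0.000383). The other large changes were those of the stress response gene Ier3 (2.02 ± 0.08, limma adjusted p = 1.22e-06), the neutrophil chemokine Cxcl1 (1.8 ± 0.21, limma adjusted p = 0.000904), the cytokine Il6 (1.72 ± 0.30, limma adjusted p = 0.00565) and Gadd45b (1.22 ± 0.15, limma adjusted p = 0.00109). The TPM rescaling left 10 of the targets higher and gave 1 lower.

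Between the populations of tumor-bearing mice the targets moved in both directions. In Tumor-macrophage against Tumor-AM, 25 were higher and 4 lower, with a median change of 0.91. Among all genes tested, 24.2% were higher and 24.4% lower. The adhesion molecule Vcam1 changed by 6.63 (from 1.0135 to 197.5 FPKM), the chemokines Ccl5, Ccl2 and Cxcl10 by 4.69, 4.52 and 4.37, and the receptor Cd40 by 4.67, none of which was called in Tumor-AM against Ctrl-AM. Il6 went the other way, with FPKM of 4.26, 4.22 and 4.63 for Ctrl-AM, 23.0, 13.4 and 14.9 for Tumor-AM, then 4.80, 1.49 and 4.47 for Tumor-macrophage. Tumor-AM was thus above both other groups, and the change of Il6 from there to Tumor-macrophage was -2.04 ± 0.30 (limma adjusted p = 0.000208). The others that were lower were Plaur, the urokinase receptor (-1.26), Il1a (-1.09) and Tlr2 (-0.74). Against Ctrl-AM, 27 were higher in Tumor-macrophage and 3 lower (Il1a, Plaur and Tlr2), with a median of 1.83. The shares over all genes tested were 27.7% higher and 27.1% lower.

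**Figure D5:**
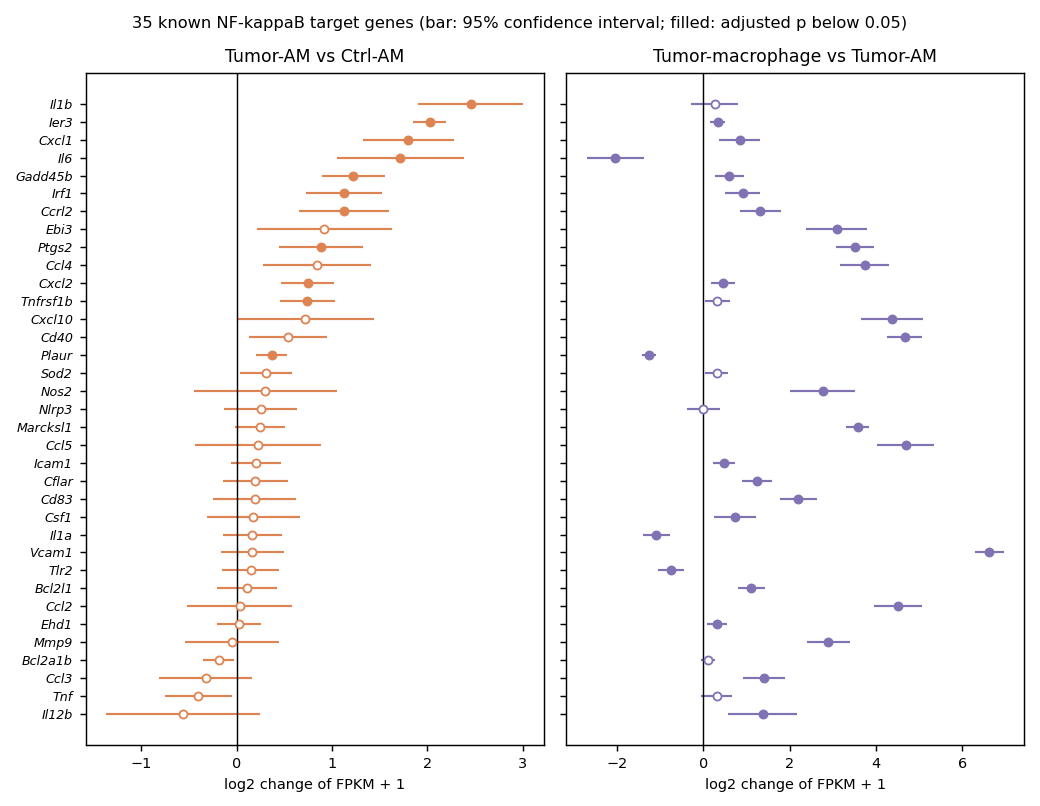
Change of log2(FPKM + 1) for the 35 known NF-kappaB target genes, as the limma estimate with its 95% confidence interval, in Tumor-AM against Ctrl-AM (left) and Tumor-macrophage against Tumor-AM (right, another x scale); filled points passed an adjusted p of 0.05, and genes are sorted by the left panel. On the left 11 genes from Il1b to Plaur are filled, and on the right the filled points run from Il6 at -2.04 to Vcam1 at 6.63.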

How the data were processed

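RNA of 9 sorted macrophage samples was amplified with SMART-Seq HT and made into Nextera libraries, per the labels. The deposited values are FPKM per gene symbol, made by the authors. Their processing notes name mm10, TopHat2 2.1.1, Bowtie2 and Cuffdiff 2.2.1, while the methods name Cufflinks. The annotation, the use of strand and the handling of reads that map to several genes are not given in the sources used here, so overlapping genes are uncertain. FPKM do not correct for a few abundant RNAs that differ between populations, and the sum ran from 635560 to 785745 per sample. Relative depth (0.907 to 1.14) was inferred from the ratios of low values between samples. The reads behind a value also rest on the steps between low values of 189 genes.

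Values were fitted as log2(FPKM + 1), which understates changes of low genes, with limma 3.58.1 in R 4.3.3 (intensity trend, two-sided, all 9 samples in 3 groups sharing 1 estimate of the spread). P-values were adjusted over 10686 genes (Benjamini-Hochberg), and values below 0.05 were called. Comparisons share samples. On simulated data for Tumor-AM against Ctrl-AM (10686 genes, 200 changed), 93% of 2-fold and 100% of 4-fold changes were recovered. Of the calls there, 3.02% were false. In simulated Tumor-macrophage against Ctrl-AM, where no gene was changed, 0 calls were made. Ratios were tested with exact permutation tests in Python 3.11.15 with scipy 1.17.1. Plots used matplotlib 3.10.9.

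The 10 genes and the lists were chosen with earlier results of these data known. All 10 genes are named in every comparison. From a list, at most the 5 called genes with the largest rise and the 5 with the largest fall are named in a comparison, and the 2 genes most like a member are given by Pearson's r, among genes with a mean of at least 10 FPKM. Genes were located in GENCODE vM21 (GRCm38), which held 95.74% of the symbols, and promoter windows come from RefSeq on GRCm38.p6. The alternatives were other pseudocounts, filters and scalings, a constant prior variance, fits of 2 groups, a replicate block and the loss of each sample in turn. For B cells, 1 further marker gene and the sum and counts of the whole list are not reported here.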

Additional observations from a re-analysis of the deposited data

How the results depend on the processing

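Of 30 gene comparisons (10 genes, 3 comparisons), 21 passed the test, and 17 of these passed it under all 18 alternatives. The exceptions were Nfkb2 and Nfkbia in Tumor-AM against Ctrl-AM and Rela in both comparisons of Tumor-macrophage. The count of the 10 genes called ran from 4 to 7, from 5 to 7 and from 8 to 9 in the 3 comparisons, and that of the 35 targets from 10 to 14, from 26 to 31 and from 28 to 31.

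Changes that were not called turned sign in a few settings, and none was called there. With the TPM rescaling these were Nfkb1 in Tumor-macrophage against Ctrl-AM (-0.0748), Relb in Tumor-AM against Ctrl-AM (-0.0119) and Tnfaip3 in Tumor-macrophage against Tumor-AM (-0.0371). Leaving out a sample gave -0.0343 (without Ctrl-AM 3) to 0.237 for that change of Relb, and -0.0445 (without Tumor-macrophage 1) to 0.267 for that of Tnfaip3, which was also negative without Tumor-AM 2 (-0.0424) or Tumor-macrophage 3 (-0.0438). The cause was not tested.

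Over all genes, the 1100 calls in Tumor-AM against Ctrl-AM became 538 to 1254 when a sample was left out. They were 538 without Ctrl-AM 1, 690 without Ctrl-AM 2, 549 without Ctrl-AM 3, 733 without Tumor-AM 1 and 674 without Tumor-AM 3, where fewer samples were fitted.

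The shared sample numbers were tested as a pairing. Deviations from the group means correlated across genes between same-numbered samples with r from -0.062 to 0.159 over the 3 comparisons. Both ends of that range come from Tumor-AM against Ctrl-AM, which were different mice. For Tumor-macrophage against Tumor-AM, same-numbered samples had r of 0.026, 0.096 and 0.109. Differently numbered samples there had lower r, from -0.101 to 0.006. The 3 deviations of a group sum to 0, so positive r for same numbers forces lower r on average for the others. The lower r are therefore no separate sign of pairing. These r were small and the numbers were not taken as pairs, but a pairing of these 2 groups was not excluded. With the replicate block, 938, 5069 and 5772 genes were called, and among the 10 genes only Nfkb2 in Tumor-AM against Ctrl-AM lost its call (adjusted p = 0.0765).

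With 3 samples a group, small changes are out of reach: the confidence interval for Rela between the AM groups spans -0.23 to 0.18. Depth was similar in all samples, and Bcl3 in Ctrl-AM rests on the fewest reads.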

Other observations

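Among the 5337 genes tested with a mean of at least 10 FPKM, those whose log2(FPKM + 1) followed each of the 10 genes most closely over the 9 samples were mostly not genes of the pathway. These correlations describe 9 samples in 3 groups that share their libraries. Nfkbiz had Pearson's r of 0.999 with Gusb, a lysosomal enzyme, and 0.998 with Sema4d, and Nfkbie had 0.998 with the interferon receptor gene Ifnar2 and 0.998 with Plxnb2. Tnfaip3 was closest to Ivd, an enzyme of leucine breakdown (0.993), and to Il1b (0.983). Bcl3 was closest to Xdh (0.993) and Nfkbia (0.993), and Nfkbia to Wfdc17 (0.993) and Bcl3. For the subunits, the closest genes were Glb1 for Relb (0.980), Pip4k2a for Rela (0.974), Dock2 for Rel (0.973) and Rac2 for Nfkb2 (0.980). Next came E230013L22Rik for Relb (0.979), Stau1 for Rela (0.957), Tob2 for Rel (0.967) and Cyp4v3 for Nfkb2 (0.979).

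Among the 10 genes themselves, the closest partner was Nfkbiz for Nfkbie (0.995), Bcl3 for Nfkbia (0.993), Tnfaip3 for Rel (0.920), Nfkbiz for Relb (0.945), Relb for Rela (0.912) and Bcl3 for Nfkb2 (0.938). Nfkb1 followed none of the others as closely, with its highest value for Relb (0.743). Its closest gene overall was Snord8 (0.933), a small nucleolar RNA listed at 0 in Ctrl-AM 3, Tumor-AM 1 and Tumor-AM 2. Second was Ly6d (0.882), with mean FPKM of 7.52 for Ctrl-AM, 3.59 for Tumor-AM and 19.4 for Tumor-macrophage.

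Tnf, which encodes a cytokine that is both an inducer and a target of NF-kappaB, was singled out after its values were seen and was not called in any comparison. Its FPKM were 35.7, 35.2 and 38.6 for Ctrl-AM, 27.3, 36.4 and 20.6 for Tumor-AM, then 33.4, 33.8 and 34.98 for Tumor-macrophage. The AM groups overlapped, the Tumor-macrophage samples lay just under those of Ctrl-AM, and the changes were -0.40 (limma adjusted p = 0.148), 0.31 (limma adjusted p = 0.138) and -0.10 (limma adjusted p = 0.636) for Tumor-AM against Ctrl-AM, Tumor-macrophage against Tumor-AM and Tumor-macrophage against Ctrl-AM.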
